A study of Basiliscus vittatus and Chrysopelea ornata and Dasypeltis gansi with 10 samples.

Results

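The 31 genes described here are chromatin modifiers and remodellers measured in the adult cerebellum of 10 squamate reptiles. They were chosen by protein name from a table of 630 one-to-one orthologs: a gene entered when its name held histone, lysine-specific demethylase, nucleosome or cohesin (chromodomain, bromodomain, SWI/SNF, polycomb and chromatin were also searched and matched no name), and names holding ubiquitin were left out. Of these names, 17 held histone, 10 lysine-specific demethylase, 3 cohesin and 1 nucleosome. The name rule itself used no measured value, but it was set with earlier results of these data known. Each gene had a value in every species, and the main tests used no filter, so all 31 entered them. Among the alternative settings, the filter on mean FPKM and that on values of exactly 0.5 FPKM each left out some of the 31. The table had already been limited to orthologs shared by all species that passed an expression threshold.

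The study sequenced total cerebellar RNA of wild-type adults with different locomotor behaviours. The 6 limbless or limb-reduced species were Pantherophis guttatus and Chrysopelea ornata (colubrid snakes), Pseudopus apodus (an anguid lizard), Dasypeltis gansi (a colubrid snake), Python regius (a python) and Eryx colubrinus (a sand boa). The 4 quadrupedal species were Trioceros jacksonii (a chameleon), Basiliscus vittatus (a basilisk), Pogona vitticeps (an agamid) and Lepidothyris fernandi (a skink, labelled with the genus Mochlus in the sample record). By locomotor mode, P. guttatus, C. ornata and P. apodus belong to the multi-habitat lateral undulation group. D. gansi and P. regius belong to the multi-habitat group with other movements. These group names pool habitats. The paper lists P. guttatus, P. apodus and P. regius as terrestrial, C. ornata as aerial or arboreal and D. gansi as arboreal. E. colubrinus is a facultative burrower, for which the paper gives slow lateral undulation. Among the quadrupedal species, T. jacksonii is arboreal, B. vittatus is a facultative biped, and P. vitticeps and L. fernandi are terrestrial. Each species has 1 value per gene, in FPKM, the RNA-seq read level scaled to transcript length and library size, so a species is the replicate and every ± below is an SD across species. The number of animals behind each library is not stated in the sources used here.

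DNA in the nucleus is wound on histones, and enzymes add acetyl or methyl groups to histone tails (writers) or take them off (erasers). Acetylation and methylation of lysine 4 or 36 of histone H3 (H3K4, H3K36) usually mark active genes, whereas methylation of lysine 9 or 27 (H3K9, H3K27) usually marks silent ones. Remodellers slide nucleosomes, linker histones lock DNA onto them, and cohesin rings hold DNA loops. In mammals many of these genes are sensitive to dosage in the developing brain, and human carriers of a damaged copy often have a neurodevelopmental disorder.

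Over all 630 genes the FPKM sum was lowest in L. fernandi (6289) and P. apodus (8328) and highest in E. colubrinus (15880). All 630 genes had a median log2 difference of 0.35 between limbless and quadrupedal species and 0.56 between snakes and lizards, and centring each species to the same median brought these to 0.01 and -0.02. Gene differences below are therefore given as deposited and after centring, and a value without 1 species is given where leaving it out moved a difference by more than 1.5 times. No value in the table was 0 FPKM, so marker genes of cerebellar cells above 0 do not show that a cell type was present. The summed level of 2 Purkinje neuron genes was 20.2 to 183 FPKM in limbless and 50.3 to 103 FPKM in quadrupedal species. Reelin, made by granule neurons, was 26.8 to 321 and 54.0 to 147 FPKM. In P. apodus the Purkinje gene inositol 1,4,5-trisphosphate receptor type 1 stood at 1.38 FPKM and the astroglial gene fibroblast growth factor receptor 3 at 0.51 FPKM. The 3 astroglial genes summed to 17.5 to 78.7 FPKM in limbless and 44.9 to 131 FPKM in quadrupedal species, the 2 oligodendrocyte-lineage genes to 6.49 to 71.3 and 8.82 to 63.6 FPKM, and the 2 vessel and meningeal genes to 5.11 to 28.4 and 4.05 to 29.6 FPKM. Within a type the genes could differ in direction. As deposited, 1 of the 3 astroglial, 1 of the 2 Purkinje and 1 of the 2 vessel and meningeal genes had a higher mean log2 level in limbless species. Reelin and the 2 oligodendrocyte-lineage genes had a lower one, whereas 71% of all genes had a higher one. After centring all 3 astroglial genes were lower in limbless species, tenascin at -0.14 and fibroblast growth factor receptor 3 at -0.49. The astroglial gene with the highest mean, the electrogenic sodium bicarbonate cotransporter, had a log2 difference of -1.57 (centred -1.91). The part of cell composition in the differences below was not tested, and in these bulk samples fewer cells of a type and less RNA per cell cannot be told apart.

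As a group, the chromatin genes had median levels and a median spread across species close to those of all genes in the table. Their mean levels ran from 3.20 FPKM in MINA to 45.9 FPKM in histone H1x, with a median of 16.8 FPKM beside 14.5 FPKM over all 630 genes. Across species, log2(FPKM + 1) had a median SD of 1.00 for the 31 genes and 0.94 for all genes, and of 0.75 and 0.83 after centring. The median range from lowest to highest species was 11.5-fold for chromatin genes and 10.3-fold for all genes. A range of more than 20-fold was found in 6 of the 31 genes (19.4%) and in 24.1% of all genes. Together the 31 genes took between 3.50% of the FPKM sum in P. apodus and 4.57% in D. gansi.

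**Figure D1:**
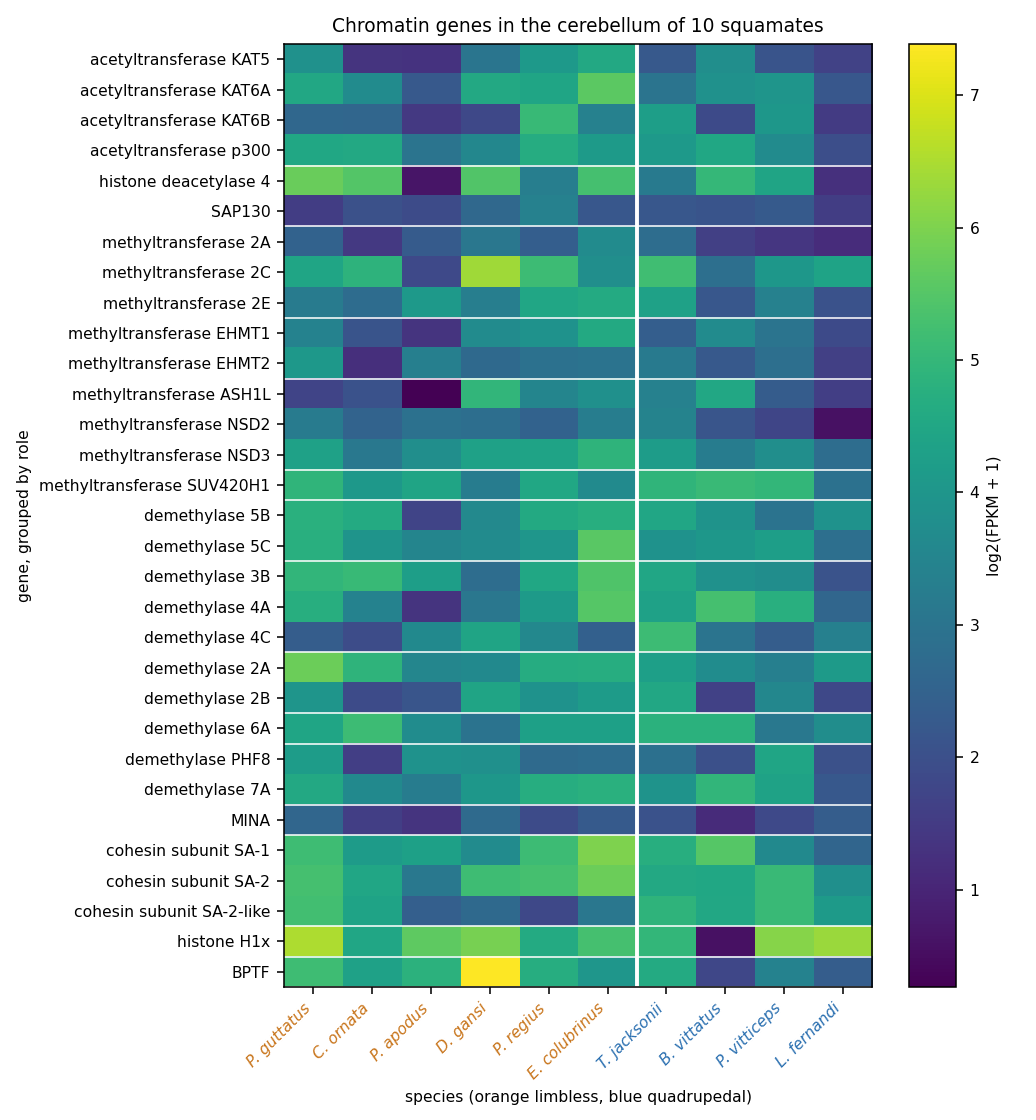
Level of each of the 31 chromatin genes, as log2(FPKM + 1) by colour, in the 10 species, with genes grouped by role (white lines) and limbless species left of quadrupedal species. The brightest cell is BPTF in D. gansi at 166 FPKM and the darkest is ASH1L in P. apodus at 0.200 FPKM.

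The heat map of levels by species shows 2 dark columns and a bright one. E. colubrinus had the highest level of 11 of the 31 genes (35.5%, against 22.7% of all genes) and L. fernandi the lowest of 12 (38.7%, against 31.3%). P. apodus had the lowest level of 9 (29.0%, against 21.4%). L. fernandi and P. apodus were thus lowest for 21 of the 31 genes between them, and neither was highest for any.

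The linker histone and the remodeller had the highest mean levels of the set. The remodeller, BPTF, had a mean of 32.8 FPKM but a median of 21.4 FPKM, below the median of cohesin subunit SA-2 (28.1 FPKM). Histone H1x, a linker histone variant, stood in the limbless species at 90.2 FPKM in P. guttatus, 21.3 in C. ornata, 48.6 in P. apodus, 59.6 in D. gansi, 23.7 in P. regius and 38.3 in E. colubrinus. In the quadrupedal species it stood at 30.8 FPKM in T. jacksonii, 0.5 in B. vittatus, 67.6 in P. vitticeps and 78.6 in L. fernandi. H1x was thus abundant in 9 species and at the bottom of the scale in B. vittatus, a 180-fold range that was the widest of the 31 genes. The B. vittatus value is exactly 0.5 FPKM, as are 30 of the 6300 values in the table, and whether it is a measured level is not known.

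BPTF, the largest subunit of the nucleosome remodelling factor NURF and a reader of methylated H3K4, had limbless values of 35.2 FPKM in P. guttatus, 19.1 in C. ornata, 27.7 in P. apodus, 166 in D. gansi, 24.8 in P. regius and 15.1 in E. colubrinus. Its quadrupedal values were 23.7 FPKM in T. jacksonii, 2.41 in B. vittatus, 9.74 in P. vitticeps and 4.14 in L. fernandi. D. gansi stood 4.73-fold above the next species, every limbless species exceeded 3 of the 4 quadrupedal species, and T. jacksonii lay among the limbless values. The group means were 48.1 ± 58.4 FPKM (n = 6) and 10.0 ± 9.66 FPKM (n = 4), a log2 difference of 2.03 (SE 0.68, 95% interval 0.59 to 3.46) and 1.69 after centring. This was the largest difference toward limbless species among the 31 genes, but it did not pass the test over all genes (limma, unadjusted p = 0.0081, Benjamini-Hochberg adjusted p = 0.284). An exact rank sum test gave an unadjusted two-sided p of 0.0381. Without D. gansi the log2 difference was 1.56, so the direction did not rest on the highest species. Reelin was also highest in D. gansi, at 321 FPKM, and whether the 2 values share a source was not tested.

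**Figure D2:**
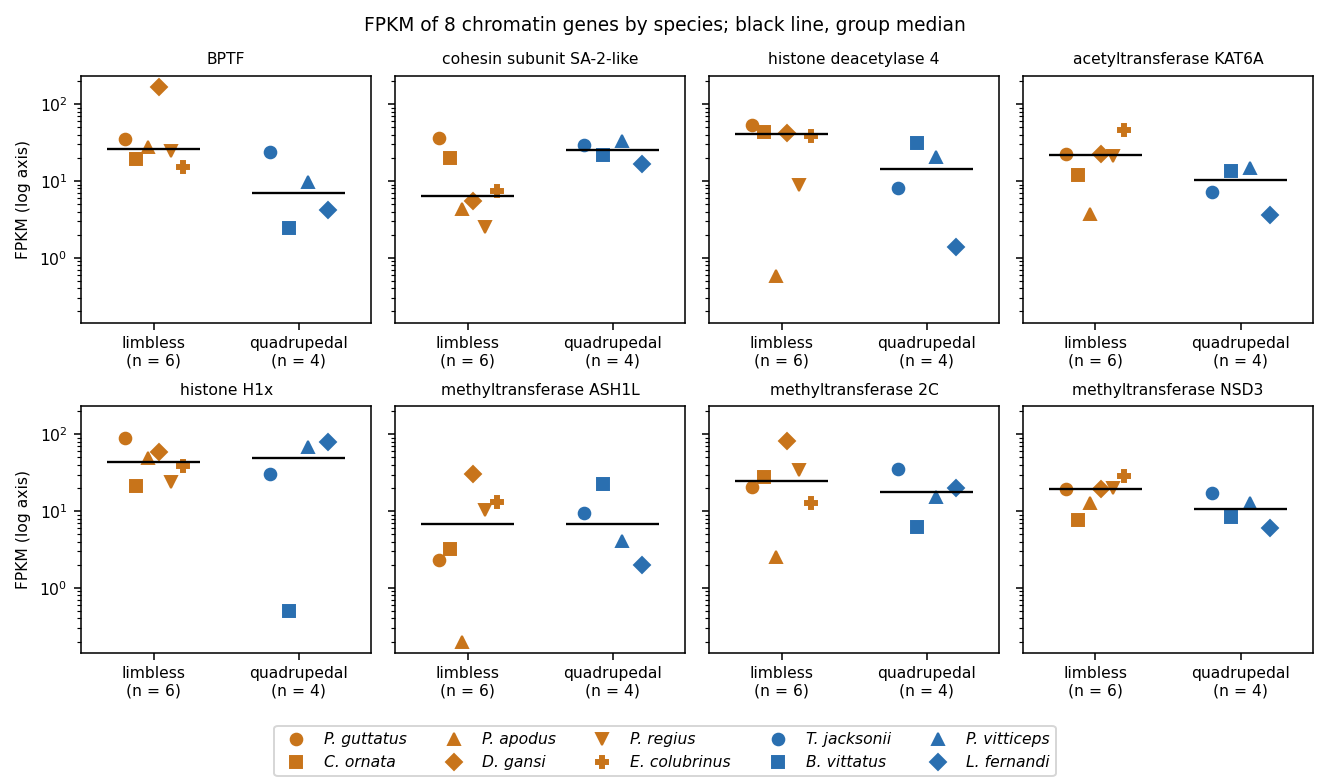
FPKM (log axis) of 8 chromatin genes in the 6 limbless (orange) and 4 quadrupedal (blue) species, 1 symbol per species, with the group median as a black line. In each of the 8 panels the groups overlap, and single species stand far from the rest in BPTF (D. gansi, 166 FPKM), histone H1x (B. vittatus, 0.5 FPKM), histone deacetylase 4 (P. apodus, 0.580 FPKM) and ASH1L (P. apodus, 0.200 FPKM).

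Among the histone acetyltransferases, KAT6A was the gene with the clearest split, and the split ran between snakes and lizards. KAT6A (MOZ) acetylates histone H3 and is best known for keeping developmental genes active. In snakes its levels were 22.2 FPKM in P. guttatus, 12.0 in C. ornata, 22.7 in D. gansi, 21.0 in P. regius and 46.9 in E. colubrinus. In lizards they were 3.77 FPKM in P. apodus, 7.10 in T. jacksonii, 13.5 in B. vittatus, 14.8 in P. vitticeps and 3.59 in L. fernandi. C. ornata lay within the lizard range and the other 4 snakes above all of it. The means were 24.97 ± 13.0 FPKM in 5 snakes and 8.57 ± 5.34 FPKM in 5 lizards, a log2 difference of 1.51 (SE 0.53, 95% interval 0.40 to 2.61) and 0.93 after centring. It did not pass the test over all genes (limma, unadjusted p = 0.0106, adjusted p = 0.277). Without L. fernandi and P. apodus, whose FPKM sums were lowest, the log2 difference was 0.95.

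The other acetyltransferases showed smaller differences. KAT6B (MORF), the paralog of KAT6A, lay between 1.71 (P. apodus) and 32.3 FPKM (P. regius), and KAT6A exceeded it in 7 of 10 species. KAT6B stood above KAT6A in P. regius, T. jacksonii and P. vitticeps. KAT5 (TIP60), the catalytic subunit of a complex that acetylates histones H4 and H2A, lay between 1.46 (P. apodus) and 22.6 FPKM (E. colubrinus). The p300 acetyltransferase, which marks active enhancers, was the least variable of the 4 (SD of log2 values 0.85) and lay between 2.96 (L. fernandi) and 24.5 FPKM (P. regius). Of the 4 acetyltransferases, 3 had a higher mean log2 level in limbless species, as deposited and after centring, and none passed the test. The share over all genes was 71% as deposited and 51.3% after centring.

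The 2 genes of the deacetylation machinery were opposites in spread. Histone deacetylase 4 (HDAC4) moves between nucleus and cytoplasm of neurons with their activity and represses transcription through MEF2 factors. It stood at 53.7 FPKM in P. guttatus, 43.9 in C. ornata, 42.6 in D. gansi, 9.00 in P. regius and 38.2 in E. colubrinus among the snakes. In lizards it stood at 0.580 FPKM in P. apodus, 8.00 in T. jacksonii, 31.4 in B. vittatus, 20.3 in P. vitticeps and 1.39 in L. fernandi. Only P. regius among the snakes lay within the lizard range, and P. apodus had the lowest level, far below every snake. HDAC4 had the largest SD of log2 values as deposited of all 31 genes (1.83, and 1.55 after centring, below the 1.82 of H1x), a 92.6-fold range, and a snake mean of 37.5 ± 16.9 FPKM beside 12.3 ± 13.2 FPKM in lizards. The log2 difference was 2.16 (SE 0.77, 95% interval 0.54 to 3.78), and 1.58 after centring, with an adjusted p of 0.278 by limma (unadjusted 0.0119). Without L. fernandi and P. apodus it was 0.87 (SE 0.66), so the value rested in large part on these 2 lizards. Between limbless and quadrupedal species, where P. apodus changes sides, the log2 difference was 0.87 (SE 0.92, centred 0.53), 0.13 without L. fernandi and 1.60 without P. apodus.

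SAP130, a subunit of the Sin3 corepressor complex that carries class I deacetylases, was low and even. Its limbless values were 1.97 FPKM in P. guttatus, 3.08 in C. ornata, 2.71 in P. apodus, 5.31 in D. gansi, 9.53 in P. regius and 3.62 in E. colubrinus. Its quadrupedal values were 3.60 FPKM in T. jacksonii, 3.29 in B. vittatus, 3.88 in P. vitticeps and 1.92 in L. fernandi. P. regius alone stood apart, and the SD of log2 values was 0.54, the second smallest of the 31 genes as deposited (0.56 after centring, the sixth smallest).

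The H3K4 methyltransferase family held 1 scarce and 1 very variable gene. KMT2A (MLL1), named histone-lysine N-methyltransferase 2A in the table, acts at promoters and is needed in mice to keep developmental genes on in neural stem cells. Its limbless levels were 4.64 FPKM in P. guttatus, 1.75 in C. ornata, 3.92 in P. apodus, 7.49 in D. gansi, 4.22 in P. regius and 12.1 in E. colubrinus. Its quadrupedal levels were 6.00 FPKM in T. jacksonii, 2.04 in B. vittatus, 1.64 in P. vitticeps and 1.26 in L. fernandi. E. colubrinus was highest and L. fernandi lowest, the groups overlapped, and the log2 difference was 0.82 (SE 0.54, centred 0.48, limma adjusted p = 0.68). KMT2C (MLL3, methyltransferase 2C), which places a single methyl group on H3K4 at enhancers, lay between 2.55 (P. apodus) and 81.6 FPKM (D. gansi). KMT2E (MLL5), a family member with little methyltransferase activity of its own, lay between 3.17 (L. fernandi) and 23.8 FPKM (E. colubrinus).

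The erasers of H3K4 methylation varied less than KMT2C (SD of log2 values 1.28), but not less than the whole writer family. KDM5B (SD 0.97) varied more than KMT2A (0.83) and KMT2E (0.93), as deposited and after centring. KDM5C, which is tied to intellectual disability in humans, had limbless levels of 25.9 FPKM in P. guttatus, 14.6 in C. ornata, 10.3 in P. apodus, 12.1 in D. gansi, 15.2 in P. regius and 46.0 in E. colubrinus. In quadrupedal species its levels were 13.9 FPKM in T. jacksonii, 15.4 in B. vittatus, 18.2 in P. vitticeps and 6.23 in L. fernandi. E. colubrinus was highest and L. fernandi lowest, the other 8 species lay between 10.3 and 25.9 FPKM, and the SD of log2 values (0.72) was the fourth smallest of the 31 genes, and the second smallest after centring (0.40). KDM5B, the other H3K4 demethylase of the set, lay between 2.32 (P. apodus) and 26.6 FPKM (P. guttatus). FPKM is a level per transcript length, so genes can be set side by side, though assembled length and completeness can differ between species. The summed levels of KMT2A and KMT2C divided by those of KDM5B and KDM5C gave a median ratio of 0.734 over the 10 species. KMT2E was not in the sum, and this ratio of RNA levels does not measure a balance of the mark. The ratio ran from 0.281 in B. vittatus to 3.83 in D. gansi and exceeded 1 in 4 species. The D. gansi ratio held KMT2C at 81.6 FPKM, exceeded among the 31 genes in that species only by BPTF.

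The paired H3K9 methyltransferases EHMT1 (GLP) and EHMT2 (G9a) act as a complex of both proteins in mammals. EHMT1 stood at 9.68 FPKM in P. guttatus, 3.33 in C. ornata, 1.54 in P. apodus, 12.1 in D. gansi, 13.9 in P. regius and 23.0 in E. colubrinus among the limbless species. In quadrupedal species it stood at 4.20 FPKM in T. jacksonii, 12.0 in B. vittatus, 6.99 in P. vitticeps and 2.67 in L. fernandi. E. colubrinus was highest and P. apodus lowest, both of them limbless. EHMT2 levels were 15.6 FPKM in P. guttatus, 1.35 in C. ornata, 9.19 in P. apodus, 5.46 in D. gansi, 6.58 in P. regius and 6.80 in E. colubrinus among the limbless species. They were 8.22 FPKM in T. jacksonii, 3.8 in B. vittatus, 6.22 in P. vitticeps and 2.08 in L. fernandi among the quadrupedal species. EHMT1 exceeded EHMT2 in 7 of 10 species, and the ratio of EHMT1 to EHMT2 ran from 0.168 in P. apodus to 3.38 in E. colubrinus. Over the 10 species the log2 levels of these partners had a Pearson correlation of 0.26, and -0.30 after centring. All genes of a species share a library, so part of any correlation over species is common to all genes. Neither gene passed a test, with log2 differences between limbless and quadrupedal species of 0.44 (SE 0.63, centred 0.10) for EHMT1 and 0.38 (SE 0.57, centred 0.04) for EHMT2. The EHMT1 value was 0.15 without L. fernandi and 0.81 without P. apodus, and that of EHMT2 0.09 without L. fernandi and 0.71 without C. ornata.

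The demethylases KDM3B, KDM4A and KDM4C, which act on H3K9, together stood above these 2 writers in every species. The summed levels of EHMT1 and EHMT2 divided by those of KDM3B, KDM4A and KDM4C gave a median ratio of 0.318, from 0.105 in C. ornata to 0.516 in D. gansi. PHF8 and KDM7A, which also act on H3K9, were not in the sum. It sets 2 writers against 3 erasers that act on different methylation states, so the ratio does not measure a balance of the mark. KDM3B, which removes the lower methylation states of H3K9, had limbless levels of 30.3 FPKM in P. guttatus, 32.1 in C. ornata, 18.2 in P. apodus, 5.98 in D. gansi, 21.9 in P. regius and 42.4 in E. colubrinus. Its quadrupedal levels were 21.1 FPKM in T. jacksonii, 13.5 in B. vittatus, 12.6 in P. vitticeps and 3.25 in L. fernandi. D. gansi lay far below the other limbless species and within the quadrupedal range, and the log2 difference was 0.96 (SE 0.60, centred 0.62, limma adjusted p = 0.647). Without L. fernandi it was 0.48.

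KDM4A and KDM4C remove the trimethyl mark from H3K9 and H3K36, and they were among the 6 genes of the 31 with lower mean log2 levels in limbless species. KDM4A stood at 25.4 FPKM in P. guttatus, 9.78 in C. ornata, 1.54 in P. apodus, 7.58 in D. gansi, 16.8 in P. regius and 44.2 in E. colubrinus among the limbless species. It stood at 19.1 FPKM in T. jacksonii, 38.0 in B. vittatus, 26.2 in P. vitticeps and 5.13 in L. fernandi among the quadrupedal species. The limbless values spread from the lowest to the highest of all 10 species, and the log2 difference was -0.54 (SE 0.72, centred -0.88, limma adjusted p = 0.816). Leaving out 1 species moved it between -1.09 (L. fernandi) and -0.07 (P. apodus). KDM4C stood at 4.15 FPKM in P. guttatus, 2.76 in C. ornata, 11.5 in P. apodus, 20.5 in D. gansi, 11.1 in P. regius and 4.41 in E. colubrinus among the limbless species. It stood at 34.2 FPKM in T. jacksonii, 6.98 in B. vittatus, 4.10 in P. vitticeps and 9.34 in L. fernandi among the quadrupedal species. The high value in T. jacksonii carried the KDM4C difference of -0.40 on the log2 scale (SE 0.63, centred -0.74, limma adjusted p = 0.826), which was 0.16 without that species and -0.77 without P. vitticeps. KDM4A exceeded KDM4C in 6 of 10 species, from a ratio of 0.134 in P. apodus to 10.0 in E. colubrinus, and their log2 levels had a correlation of -0.31 over the 10 species, -0.54 after centring.

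Writers of H3K36 methylation were led by NSD3. NSD3 stood at 19.3 FPKM in P. guttatus, 7.59 in C. ornata, 12.8 in P. apodus, 19.4 in D. gansi, 20.1 in P. regius and 28.7 in E. colubrinus among the limbless species. It stood at 17.5 FPKM in T. jacksonii, 8.50 in B. vittatus, 12.9 in P. vitticeps and 5.98 in L. fernandi among the quadrupedal species. No species was far from the rest, and its 4.80-fold range and SD of 0.67 on the log2 scale were among the smallest of the set (SD 0.37 after centring, the smallest). NSD2, loss of a copy of which in humans gives a growth and brain disorder, stood at 8.32 FPKM in P. guttatus, 4.83 in C. ornata, 6.55 in P. apodus, 6.19 in D. gansi, 4.70 in P. regius and 8.72 in E. colubrinus among the limbless species. In quadrupedal species it stood at 9.83 FPKM in T. jacksonii, 3.39 in B. vittatus, 2.34 in P. vitticeps and 0.5 in L. fernandi, the last of these being the other chromatin value at exactly 0.5 FPKM. NSD3 exceeded NSD2 in all 10 species, and the 2 genes had a correlation of 0.75 over species (0.40 after centring). The NSD2 log2 difference between limbless and quadrupedal species was 0.91 (SE 0.55, centred 0.57, limma adjusted p = 0.621). It was 0.45 without L. fernandi and 1.40 without T. jacksonii.

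ASH1L, the other H3K36 methyltransferase, linked in humans to autism and intellectual disability, was far less even. Its levels were 2.30 FPKM in P. guttatus, 3.17 in C. ornata, 0.200 in P. apodus, 30.1 in D. gansi, 10.4 in P. regius and 13.2 in E. colubrinus among the limbless species. They were 9.46 FPKM in T. jacksonii, 22.3 in B. vittatus, 4.08 in P. vitticeps and 2.01 in L. fernandi among the quadrupedal species. D. gansi and B. vittatus, 1 species of each category, stood highest, and P. apodus held the lowest of all 310 chromatin values, for a 150-fold range. No value of the 6300 in the table was below this 0.200 FPKM, so the fold rests on a value at the floor. The next lowest species, L. fernandi, stood at 2.01 FPKM.

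H3K36 demethylases were KDM2A and KDM2B, which bind CpG islands, and KDM2B also brings a Polycomb complex there. KDM2A lay between 9.12 (P. vitticeps) and 53.7 FPKM (P. guttatus) and KDM2B between 2.14 (B. vittatus) and 22.1 FPKM (T. jacksonii). KDM2A exceeded KDM2B in 7 of 10 species, by up to 10.8-fold in C. ornata. The summed levels of the 3 H3K36 methyltransferases divided by those of KDM2A and KDM2B gave a median ratio of 0.946, from 0.437 in P. guttatus to 2.36 in B. vittatus. With KDM4A and KDM4C, which act on H3K36 too, counted among the erasers, the median ratio was 0.462, from 0.251 in L. fernandi to 0.928 in D. gansi. The ratio therefore depends on which erasers are counted. With all 4, set against 3 writers, it was below 1 in each of the 10 species.

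SUV420H1 (KMT5B), which methylates lysine 20 of histone H4, was alike in 3 of the 4 quadrupedal species. Its limbless values were 29.5 FPKM in P. guttatus, 15.6 in C. ornata, 20.5 in P. apodus, 8.48 in D. gansi, 21.7 in P. regius and 11.9 in E. colubrinus. Its quadrupedal values were 29.1 FPKM in T. jacksonii, 33.3 in B. vittatus, 30.7 in P. vitticeps and 6.57 in L. fernandi. These 3 were T. jacksonii, B. vittatus and P. vitticeps, with L. fernandi far below them. The log2 difference between categories was -0.34 (SE 0.56, centred -0.68, limma adjusted p = 0.833). It moved to -0.86 without L. fernandi and to -0.13 without B. vittatus.

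The remaining demethylases included KDM6A (UTX), the eraser of the Polycomb mark on H3K27, which lay between 6.92 (D. gansi) and 34.2 FPKM (C. ornata). Its log2 difference between limbless and quadrupedal species was 0.04 (centred -0.31, -0.30 without P. vitticeps and 0.27 without D. gansi) with a 95% interval from -1.12 to 1.19, which leaves room for log2 differences over 1 in either direction. PHF8 and KDM7A belong to 1 family of erasers that read methylated H3K4, and human PHF8 is tied to intellectual disability. PHF8 stood at 17.2 FPKM in P. guttatus, 2.00 in C. ornata, 13.3 in D. gansi, 5.66 in P. regius and 5.92 in E. colubrinus among the snakes. It stood at 14.0 FPKM in P. apodus, 6.40 in T. jacksonii, 3.01 in B. vittatus, 20.9 in P. vitticeps and 3.11 in L. fernandi among the lizards. Both lineages held high and low species, and the log2 difference was -0.03 (SE 0.61, centred -0.61), -0.32 without P. guttatus and 0.33 without C. ornata. KDM7A lay between 3.72 (L. fernandi) and 29.7 FPKM (B. vittatus) and exceeded PHF8 in 8 of 10 species.

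MINA (RIOX2), an oxygenase best known for hydroxylating a ribosomal protein and named a demethylase in the table, had the lowest mean level of the 31 genes. Its SD of log2(FPKM + 1) was the smallest of the 31 as deposited (0.53), on a scale that understates changes at low levels, and the ninth smallest after centring (0.65). In limbless species it stood at 5.18 FPKM in P. guttatus, 2.01 in C. ornata, 1.51 in P. apodus, 5.56 in D. gansi, 2.74 in P. regius and 3.83 in E. colubrinus. In quadrupedal species it stood at 3.18 FPKM in T. jacksonii, 1.22 in B. vittatus, 2.57 in P. vitticeps and 4.16 in L. fernandi. L. fernandi, the lowest species for 12 of the genes, had the 3rd highest MINA level.

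**Figure D3:**
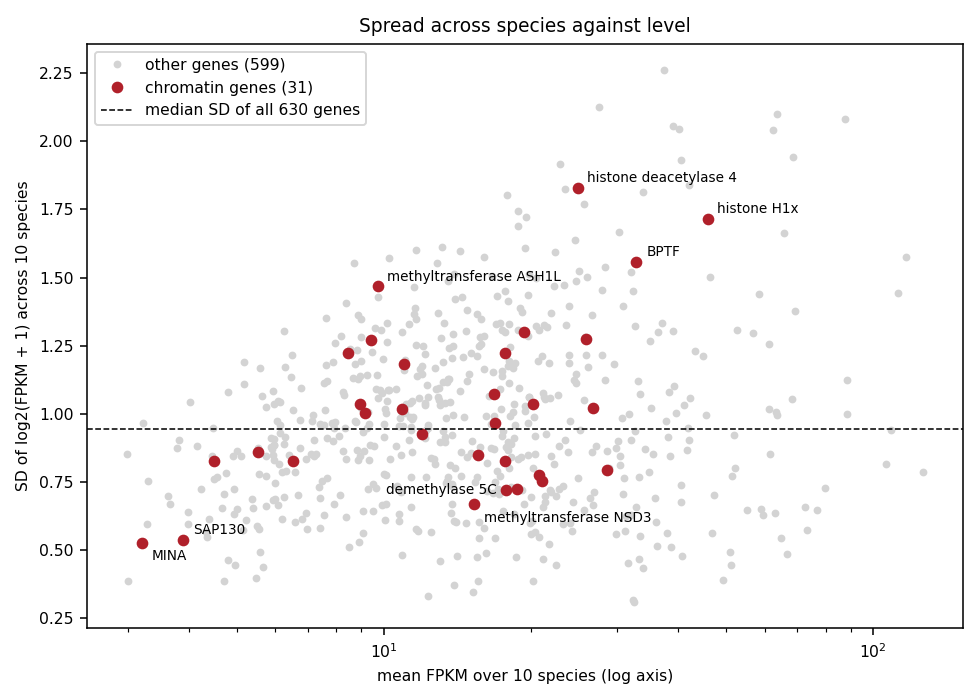
SD of log2(FPKM + 1) across the 10 species against mean FPKM (log axis) for the 31 chromatin genes (red) and the other genes of the table (grey), with the median SD of all 630 genes as a dashed line. The chromatin genes lie on both sides of the line, from MINA (SD 0.53) to histone deacetylase 4 (SD 1.83).

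The plot of spread against level places 17 of the 31 genes above the all-gene median SD, and after centring 12 lay above it. As deposited, the 4 most variable genes were HDAC4, histone H1x (SD 1.71), BPTF (1.56) and ASH1L (1.47), 1 each from deacetylation, linker histones, remodelling and H3K36 methylation. The 4 least variable were MINA (0.53), SAP130, NSD3 and KDM5C. After centring H1x, HDAC4, BPTF and SA-2-like varied most, and NSD3, KDM5C, SA-2 and KDM7A least.

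Cohesin was represented by its SA subunits, the STAG proteins that sit on the ring and bind CTCF, and of which each cohesin complex carries 1. SA-1 stood at 35.4 FPKM in P. guttatus, 17.1 in C. ornata, 18.9 in P. apodus, 12.1 in D. gansi, 34.2 in P. regius and 63.5 in E. colubrinus among the limbless species. It stood at 25.6 FPKM in T. jacksonii, 44.3 in B. vittatus, 11.6 in P. vitticeps and 5.00 in L. fernandi among the quadrupedal species. E. colubrinus and B. vittatus stood highest and L. fernandi lowest. SA-2 stood at 38.2 FPKM in P. guttatus, 21.4 in C. ornata, 7.62 in P. apodus, 34.8 in D. gansi, 38.0 in P. regius and 54.1 in E. colubrinus among the limbless species. It stood at 22.8 FPKM in T. jacksonii, 21.9 in B. vittatus, 33.4 in P. vitticeps and 13.1 in L. fernandi among the quadrupedal species. SA-2 had the 3rd highest mean of the 31 genes (28.5 FPKM), and P. apodus stood lowest. Between snakes and lizards its log2 difference was 0.98 (SE 0.49, centred 0.40, limma adjusted p = 0.372).

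**Figure D4:**
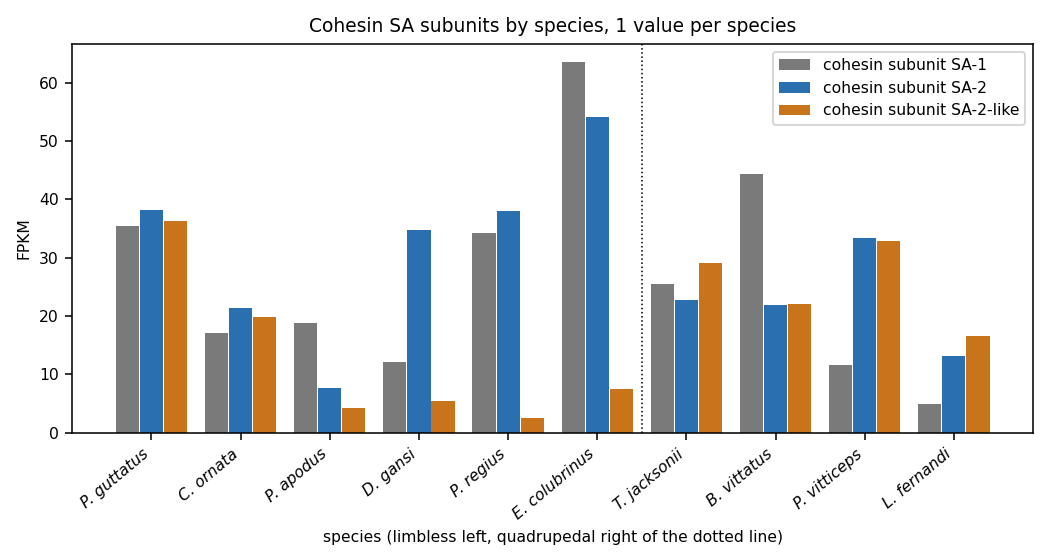
FPKM of the 3 cohesin SA genes in each species, 1 bar per gene and species, with limbless species left of the dotted line. SA-2 and SA-2-like bars have nearly the same height in P. guttatus, C. ornata, B. vittatus and P. vitticeps, whereas in D. gansi, P. regius and E. colubrinus SA-2-like stands at 2.52 to 7.43 FPKM beside SA-2 at 34.8 to 54.1 FPKM.

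A further row, named SA-2-like, had another pattern than SA-2. It stood at 36.3 FPKM in P. guttatus, 19.9 in C. ornata, 4.31 in P. apodus, 5.51 in D. gansi, 2.52 in P. regius and 7.43 in E. colubrinus among the limbless species. In quadrupedal species it stood at 29.1 FPKM in T. jacksonii, 22.1 in B. vittatus, 32.9 in P. vitticeps and 16.6 in L. fernandi. P. guttatus and C. ornata lay among or above the quadrupedal values, and the other 4 limbless species lay below all of them. The means were 12.7 ± 13.1 FPKM (n = 6) and 25.2 ± 7.28 FPKM (n = 4), a log2 difference of -1.40 (SE 0.63, 95% interval -2.71 to -0.08) and -1.74 after centring. It was the largest difference in that direction among the 31 genes and did not pass the test over all genes (limma, unadjusted p = 0.0389, adjusted p = 0.438).

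The ratio of SA-2 to SA-2-like was far above 1 in D. gansi, E. colubrinus and P. regius, as the bar plot of the cohesin subunits shows. It lay between 0.784 and 1.08 in T. jacksonii, L. fernandi, B. vittatus, P. vitticeps, P. guttatus and C. ornata. It was 6.32 in D. gansi, 7.29 in E. colubrinus and 15.1 in P. regius. P. apodus lay between at 1.77, with both rows low (7.62 and 4.31 FPKM). The 2 limbless species near 1 were both colubrid snakes using lateral undulation, and D. gansi, a colubrid too, was not near 1. Over the 10 species the log2 levels of SA-2 and SA-2-like had a correlation of 0.05. Whether SA-2-like is a separate gene or part of the SA-2 transcripts is not known from the table, and reads of near-identical transcripts may be split between the rows, so both levels are uncertain.

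Taken over the 31 genes, none passed the adjusted test between limbless and quadrupedal species. Neither did any of the 630 genes, a background of 0%. At an unadjusted p under 0.05, 62 of 630 genes (9.84%) and 2 of the 31 chromatin genes stood out, BPTF (higher in limbless species, as were 8.25% of all genes) and SA-2-like (lower, as were 1.59%). Without D. gansi 4 of the 630 genes passed, without T. jacksonii 2 and without B. vittatus 1, none of them among the 31. An exact rank sum test called 0 genes after adjustment, with 45 of 630 at an unadjusted p under 0.05. No chromatin gene had limbless and quadrupedal values that did not overlap, against 3.02% of all genes. The mean log2 level was higher in limbless species for 25 of the 31 genes (80.6%), beside a background of 71%, and after centring for 18 (58.1%, beside 51.3%). The median log2 difference was 0.44 for the 31 genes and 0.35 for all genes, and 0.10 and 0.01 after centring. Without L. fernandi alone both medians were 0.15, and without P. apodus alone they were 0.70 and 0.50. Without L. fernandi and P. apodus, 21 of the 31 genes (67.7%) and 64.4% of all genes were higher in limbless species.

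By role, the counts of genes higher in limbless species changed with centring. Of 9 methyltransferases, 7 had a higher mean log2 level in limbless species as deposited and 6 after centring. Of 11 demethylases, including MINA, 9 did as deposited and 4 after centring. Of the 6 acetylation genes, 5 did as deposited and 4 after centring. Over all 630 genes the share higher in limbless species was 71% as deposited and 51.3% after centring. No gene in these counts passed the test.

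**Figure D5:**
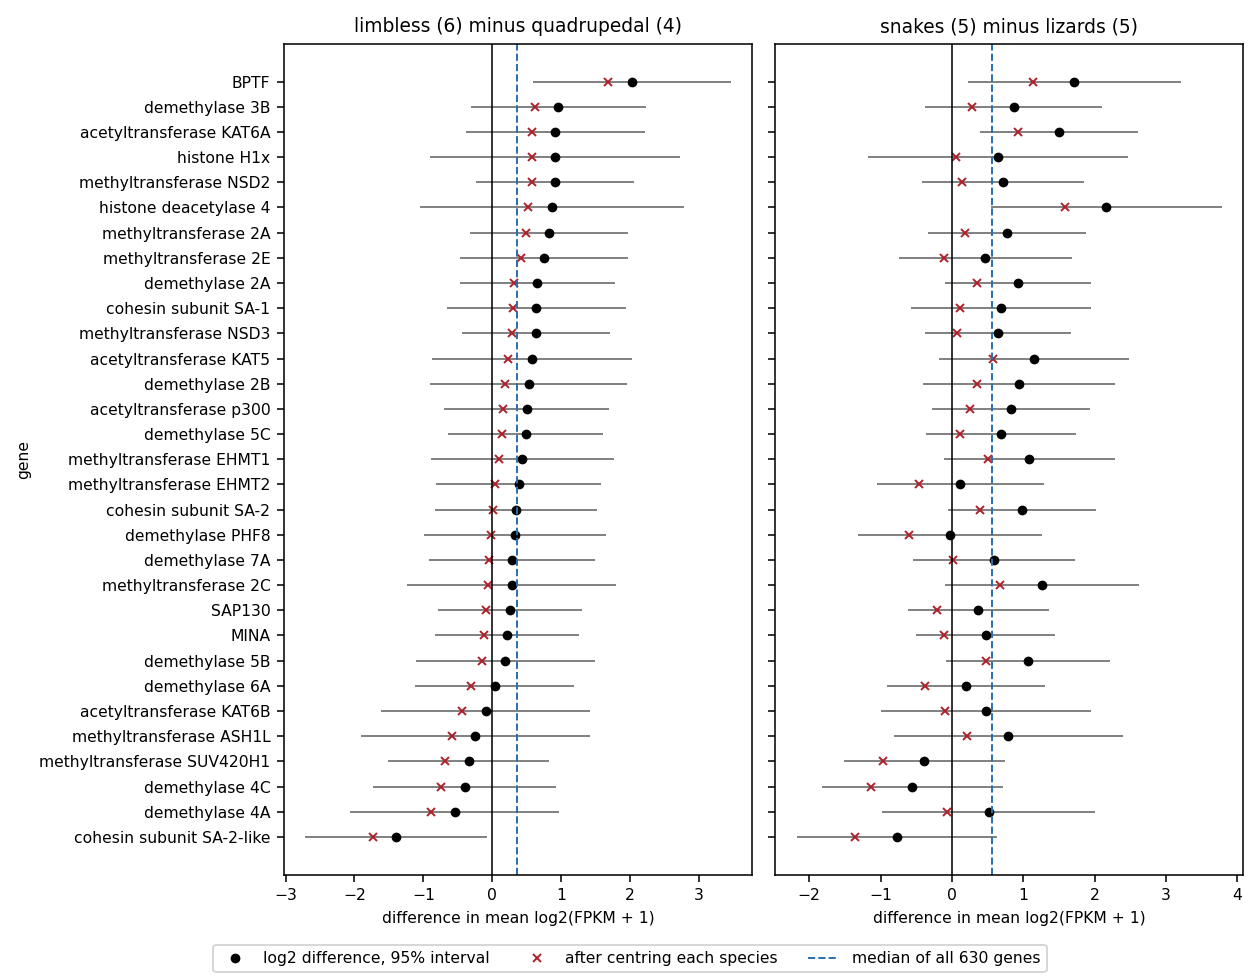
Difference in mean log2(FPKM + 1) for each chromatin gene, limbless minus quadrupedal species (left) and snakes minus lizards (right), with 95% intervals (lines), the value after centring each species (crosses) and the median of all 630 genes (dashed). On the left the intervals of BPTF and SA-2-like do not include 0, and on the right those of BPTF, KAT6A and histone deacetylase 4 do not.

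Snakes and lizards differ from the locomotor categories only in where P. apodus stands, so both comparisons rest on nearly the same species. Without P. apodus they are the same comparison. Again 0 of 630 genes passed the adjusted test (0%). Leaving out D. gansi gave 2 calls, and leaving out T. jacksonii or B. vittatus 1 each, none among the 31. At an unadjusted p under 0.05 stood 85 of 630 genes (13.5%) and 3 of the 31, namely KAT6A, HDAC4 and BPTF, each higher in snakes, as were 13.3% of all genes. The exact rank sum test gave 0 adjusted calls and 59 genes at an unadjusted p under 0.05, KAT6A and HDAC4 among them (both 0.0317). No chromatin gene separated snakes from lizards without overlap, against 1.9% of all genes. BPTF had a log2 difference of 1.71 (SE 0.71, adjusted p = 0.317 by limma) and 1.13 after centring. After centring, the 3 chromatin genes at an unadjusted p under 0.05 were KAT6A, HDAC4 and SUV420H1, the last lower in snakes, and not BPTF. Means were higher in snakes for 27 of the 31 genes (87.1%), beside 80.8% of all genes, and after centring for 20 (64.5%, beside 48.9%).

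The plot of differences also shows the genes with lower snake means. SA-2-like had a log2 difference of -0.77 (SE 0.67, centred -1.35), -1.22 without P. apodus and -0.37 without P. regius. KDM4C had -0.55 (SE 0.60, centred -1.13), -0.92 without D. gansi and -0.14 without T. jacksonii. SUV420H1 had -0.39 (SE 0.53, centred -0.96), -0.77 without L. fernandi and -0.18 without D. gansi. With PHF8 these were the only 4 genes of the 31 below 0 as deposited, and each interval as deposited included 0. Centring lowers the snake minus lizard difference of every gene by the same amount, so any difference below 0 had to grow. SUV420H1 then had a limma unadjusted p of 0.0438 and an adjusted p of 0.603.

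Within the limbless species, the 3 of the multi-habitat lateral undulation mode were compared with the 2 of the multi-habitat mode with other movements. E. colubrinus, to which the paper gives slow lateral undulation, is a facultative burrower by mode and was in neither group. No gene passed the adjusted test (0 of 630, 0%), although 5 did without P. regius and 1 without D. gansi, none among the 31, and 77 of 630 (12.2%) had an unadjusted p under 0.05. Of the 31 genes, ASH1L and KMT2C were below that level, both lower in lateral undulation (10.8% of all genes), and none was below it in the other direction (1.43%). ASH1L stood at 2.30 FPKM in P. guttatus, 3.17 in C. ornata and 0.200 in P. apodus against 30.1 FPKM in D. gansi and 10.4 in P. regius. In ASH1L every species of the lateral undulation group thus lay below both of the other group. Its log2 difference was -2.88 (SE 0.80), -2.53 after centring, with a limma unadjusted p of 0.00368 and an adjusted p of 0.258. KMT2C stood at 20.8 FPKM in P. guttatus, 28.2 in C. ornata and 2.55 in P. apodus against 81.6 FPKM in D. gansi and 34.5 in P. regius. Its log2 difference was -2.04 (SE 0.93, limma adjusted p = 0.4), -1.69 after centring and -1.10 without P. apodus. After centring, ASH1L, SA-2-like and KDM3B were the chromatin genes at an unadjusted p under 0.05, SA-2-like and KDM3B higher in lateral undulation, and KMT2C was not among them.

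With groups this small, non-overlap is common: 25.9% of all genes had values that did not overlap, and 21.7% lay lower in lateral undulation. The 5 chromatin genes without overlap were SAP130, KMT2C, ASH1L, EHMT1 and NSD3, all lower in the lateral undulation group. E. colubrinus, in neither group, stood above P. regius in ASH1L (13.2 FPKM). It stood above both D. gansi and P. regius in EHMT1 (23.0 FPKM) and NSD3 (28.7 FPKM). In SAP130 (3.62 FPKM) and KMT2C (12.9 FPKM) it lay below both. An exact rank sum test of 3 species against 2 cannot give a two-sided p below 0.2.

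Among pairs of chromatin genes, some followed each other closely across species, as a description over 10 species that share libraries. KAT5 and EHMT1 had a correlation of log2 levels of 0.94 (0.87 after centring). KMT2A and NSD3 had 0.90 (0.84), KAT6A and EHMT1 0.92 (0.84), SA-2 and KAT6A 0.94 (0.81), and PHF8 and EHMT2 0.77 (0.80). These 5 were the highest of the 465 pairs after centring, so the enzyme classes in them only describe the extreme. An acetyltransferase stood in 3 of the 5 and an H3K9 methyltransferase in 3. At the other end KDM2B and KDM6A had -0.23 (-0.78). Over all 465 pairs the median correlation was 0.31, and over all pairs of the 630 genes 0.25, which centring brought to -0.04 and 0.02. A centred correlation over 0.7 was found in 8 of the 465 pairs (1.72%) and in 1.82% of all pairs of genes.

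Other chromatin genes of the table that the name rule did not take in were listed from their known roles: 26 remodellers, histone chaperones, DNA methylation enzymes, cofactors and deubiquitinases. Between limbless and quadrupedal species 0 of the 26 passed the adjusted test, 7 had an unadjusted p under 0.05 and a higher limbless mean (26.9%, beside 8.25% of all genes), and none had an unadjusted p under 0.05 with a lower one. Their median log2 difference was 0.71, beside 0.35 over all genes, and after centring 0.37 beside 0.01. This list was made with earlier results of these data known, so its shares and medians describe it and do not test it. MYSM1, which removes ubiquitin from histone H2A and was left out of the 31 by its name, had means of 29.2 ± 11.4 FPKM in limbless and 4.78 ± 5.64 FPKM in quadrupedal species, a log2 difference of 2.68 (centred 2.34, limma adjusted p = 0.0928). BAP1, the other H2A deubiquitinase, had means of 26.4 ± 23.2 and 4.63 ± 1.89 FPKM, a log2 difference of 2.05 (centred 1.71, limma adjusted p = 0.134). In the other direction stood the SWI/SNF-related genes HLTF, with 12.4 ± 4.19 FPKM in limbless and 34.5 ± 22.0 FPKM in quadrupedal species (log2 difference -1.07, centred -1.41, limma adjusted p = 0.621), and SNF2L2, with 31.6 ± 13.7 and 42.4 ± 15.7 FPKM (log2 difference -0.44, centred -0.78, limma adjusted p = 0.787). Leaving out L. fernandi moved these to -1.78 and -0.69, leaving out B. vittatus moved HLTF to -0.69, and leaving out T. jacksonii moved SNF2L2 to -0.28.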

How the data were processed

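Total cerebellar RNA of 1 library per species, in 10 species, was analysed. By the study's methods the authors trimmed reads (Trimmomatic), removed ribosomal reads, assembled transcripts de novo for each species (Trinity), inferred orthologs (OrthoFinder) and estimated abundance with RSEM. The deposited values are FPKM, scaled by the authors to library size and transcript length. They keep no read numbers, so depth per gene is unknown. Orthologs above 0.5 FPKM in at least 1 sample were kept by the authors. The sources used here do not give how duplicate sequencing runs were merged. Species were assembled separately, so transcript length and completeness can differ between species.

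Each sample took its species from its label, and each species its locomotor category, mode and lineage from the paper. Differences were tested here on log2(FPKM + 1) over all 630 rows, with no filter, by limma 3.58.1 in R 4.3.3, with Benjamini-Hochberg adjustment and a threshold of 0.05 (two-sided). A fold on this scale understates changes of low genes. With 1 library a species, p-values reflect differences among species, in which ancestry, individual and technique cannot be told apart. Other computations used Python 3.11.15 with pandas 2.3.3, numpy 2.4.6 and scipy 1.17.1, and figures matplotlib 3.10.9. The fit was tested on simulated data.

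Members and lists were chosen with earlier results of these data known. Every member is named. Full values are given for the 4 smallest p in each direction (categories, lineages), the 4 largest and 4 smallest SD, the 3 highest and 3 lowest means, the cohesin subunits and the EHMT pair. Of the other chromatin genes the 2 smallest p in each direction are named. Alternatives were a pseudocount of 0.1, a mean of at least 5 FPKM, centring, quantile normalization, leaving out genes with a value of exactly 0.5 FPKM, leaving out each species, and an exact rank sum test. Leaving out L. fernandi and P. apodus together was chosen after seeing the data. No sequences are shown, since no reference was used here.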

Additional observations from a re-analysis of the deposited data

Results flagged for a closer look

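Within each category the highest and lowest species of every chromatin gene were checked with Dixon's ratio (62 groups, of which chance marks about 5%). It marked 2 groups, no more than chance would, so they are given as a description only. SUV420H1, the H4K20 methyltransferase, was 6.57 FPKM in L. fernandi, the lowest of the 4 quadrupedal species, where the next lowest was 29.08 FPKM. BPTF, the NURF remodeller subunit, was 166.45 FPKM in D. gansi, the highest of the 6 limbless species, where the next highest was 35.18 FPKM.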

How the results depend on the processing

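No paired analysis was possible because each species has 1 library and no replicate numbers are shared. Of 270 values of the 16 named differences under the alternatives, 264 kept their direction, 6 reversed, and 0 passed the adjusted threshold. KDM4C between categories ran from -0.77 to 0.16 when each species was left out, above 0 only without T. jacksonii. PHF8 between lineages ran from -0.32 to 0.33, above 0 at 0.33, 0.18, 0.04, 0.03 and 0.32 without C. ornata, P. apodus, P. regius, E. colubrinus and P. vitticeps. Leaving out each species in turn gave 0 to 4 genes called between categories (4 without D. gansi, 2 without T. jacksonii, 1 without B. vittatus), 0 to 2 between lineages (2 without D. gansi, 1 each without T. jacksonii and B. vittatus) and 0 to 5 between undulation and other movements (5 without P. regius, 1 without D. gansi). None of these genes was a chromatin gene of the 31. In the last fits 1 species stands alone in its group and is assumed to vary like the others. The cause was not tested. With 1 value per species and FPKM without counts, precision is limited by the number of species.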

Other observations

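Of the 26 other chromatin genes, the enzymes that write and remove DNA methylation were singled out after their values were seen. DNMT1, which copies DNA methylation after replication, had means of 18.4 ± 7.12 FPKM in 6 limbless and 5.88 ± 2.92 FPKM in 4 quadrupedal species, with the lowest limbless species, D. gansi, at 9.09 FPKM and the highest quadrupedal species, T. jacksonii, at 8.78 FPKM. Its groups therefore did not overlap, as in 3.02% of all genes, and the log2 difference was 1.52 (centred 1.18, limma adjusted p = 0.284).

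TET3, which oxidizes methylated cytosine and is expressed in mature mammalian neurons, stood at 127.68 FPKM in P. regius. In the other 4 snakes it was 9.44 to 12.6 FPKM, and in the 5 lizards 0.88 to 3.03 FPKM, so snakes and lizards did not overlap (1.9% of all genes). The log2 difference between snakes and lizards was 2.73 (SE 0.64, centred 2.15, limma adjusted p = 0.0800).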
